A study of Mus musculus with 10 samples.

Results

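Of 36251 ATAC-seq peaks outside the Y chromosome, 357 (0.985%) were more accessible in innate lymphoid cells that had lost both RORgt and T-bet than in cells that had lost RORgt alone or RORgt together with RORa. A peak was taken where both RORgt-Tbet-KO values lay above every RORgt-KO and RORgt-RORa-KO value and the RORgt-Tbet-KO mean lay at least 0.8 on the log2 scale, or 1.74-fold, above the mean of each of these groups. The 357 peaks are called members below. They were then split by the Control libraries, which the rule did not use. The bound was the midpoint between the RORgt-Tbet-KO mean and the average of the RORgt-KO and RORgt-RORa-KO means. In 150 members (0.414% of all peaks) the Control mean lay at or above this midpoint, and in 207 members (0.571%) it lay under it. The first class is called Control-open and the second Control-low. The same rule turned round, with RORgt-Tbet-KO below the other knockouts, found 1415 peaks (3.9%), and the same rule for peaks higher in RORgt-RORa-KO found 678 (1.87%).

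ATAC-seq reads open chromatin through a transposase, Tn5, that inserts sequencing adapters where the DNA is free. The cells came from the lamina propria of the small intestine of C57BL/6 mice and were sorted as innate lymphoid cells (ILCs). The 4 groups were RORgt-Tbet-KO (n = 2; Id2creERT2+ with tdRFP+ and Tbx21f/f), RORgt-KO (n = 2; Id2creERT2+ with tdRFP+), RORgt-RORa-KO (n = 3; Id2creERT2+ with tdRFP+ and Roraf/f) and Control (n = 3; Id2creERT2+ with tdRFP+). The 3 knockout groups also shared the floxed RORgt allele. All 4 groups carried the Cre and the red fluorescent reporter and were fed tamoxifen for several weeks, so Control lacks the floxed alleles but not the Cre or the drug. Id2 is expressed by all ILC groups and by other cells, so deletion was not limited to group 3 ILCs. Each library was a biological replicate made from 1 intestine or from a small pool of intestines, which hides differences between animals within a pool. The labels do not state which surface markers were sorted on, how old the mice were or which exons loxP flanked.

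RORgt is the nuclear receptor that defines group 3 ILCs, which make interleukin-22 and interleukin-17 at the gut barrier. T-bet, encoded by Tbx21, drives type 1 programmes such as interferon gamma production, and in a subset of group 3 ILCs it is expressed together with RORgt and opposes it. RORa, encoded by Rora, is a relative of RORgt that binds similar DNA and shares part of its targets.

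Of 351 members on chromosomes with promoter windows, 2 overlapped such a window, at Il22 and at Il6. The window runs from 250 bases before to 50 bases after a gene start. The part of each peak inside the window and before that start is printed here, as the only promoter sequence among the members. The rest of each peak was not searched for motifs. The Il22 peak, at chr10:118204392-118204940, reaches well beyond its printed stretch. Both are the plus strand of GRCm38, from RefSeq GRCm38.p6, and run 5′ to 3′. The Il22 sequence is chr10:118204714-118204940 and the Il6 sequence is chr5:30012864-30013113. Capitals mark matches to a searched motif, which in Il22 is a TATA motif and in Il6 an AP-1 motif, the site of Fos and Jun dimers, followed by an ETS core read on the minus strand.
Il22: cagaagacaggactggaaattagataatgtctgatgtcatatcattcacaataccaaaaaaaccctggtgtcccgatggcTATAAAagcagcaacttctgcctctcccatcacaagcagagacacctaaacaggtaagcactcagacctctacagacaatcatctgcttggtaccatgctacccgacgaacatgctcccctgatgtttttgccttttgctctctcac
Il6: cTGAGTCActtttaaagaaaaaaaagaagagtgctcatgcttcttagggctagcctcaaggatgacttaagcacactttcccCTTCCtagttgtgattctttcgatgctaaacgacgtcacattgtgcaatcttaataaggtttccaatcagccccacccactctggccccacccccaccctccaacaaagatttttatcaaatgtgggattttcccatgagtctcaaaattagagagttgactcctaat
The Il22 sequence spans 227 bases with a GC content of 45.4% and the Il6 sequence spans 250 bases with 42.8%, while 32817 RefSeq promoter windows had a median of 52.7%. The gene record of Il22 begins at 118204584, before the start site used by the promoter table. All 227 printed Il22 bases lie inside that record, so some or all of them may be transcribed. The searched motifs, on both strands, were the T-box core GGTGTGA, the ROR half-site AGGTCA, the AP-1 motif TGANTCA, the RUNX motif TGTGGT, the ETS core GGAAG and the TATA motif TATAAA. Il22 had TATAAA at position 81 of the printed sequence and no other match. Il6 had the AP-1 motif at position 2 and the ETS core at position 83. Among all promoter windows, which are longer than the printed stretches, the shares with a match were 3.98% for the T-box core, 16.3% for the ROR half-site, 7.81% for AP-1, 16.8% for RUNX, 71.4% for the ETS core and 13.6% for TATA. No member overlapped a miRNA hairpin.

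The deposited values are log2 scaled reads per peak. Reads in peaks came to 4581343 and 5048636 in RORgt-Tbet-KO, 3389482 and 2631420 in RORgt-KO, 2272276 to 4734879 in RORgt-RORa-KO and 2519644 to 3382309 in Control. The deepest libraries were therefore both RORgt-Tbet-KO libraries and RORgt-RORa-KO replicate 3. None of the 3 peaks assigned to Tbx21 or the 14 assigned to Rora was a member. The Tbx21 peak at chr11:97112532-97113091 had 6.69 and 6.92 in RORgt-Tbet-KO, 5.84 and 5.78 in RORgt-KO, 6.57, 6.34 and 5.73 in RORgt-RORa-KO and 5.07, 5.07 and 5.0 in Control. A peak remains readable where a floxed exon is elsewhere in the gene, so these peaks do not check the deletion. In these bulk libraries, more cells with an open peak and a more open peak in each cell cannot be told apart.

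The median member held 5.89 and 5.87 log2 scaled reads in the RORgt-Tbet-KO libraries, 4.99 and 4.74 in RORgt-KO, 4.81, 4.63 and 4.65 in RORgt-RORa-KO, and 5.28, 5.13 and 5.26 in Control. In the median member the gap between the RORgt-Tbet-KO mean and the higher of the other knockout means was 0.93, with a range from 0.80 to 2.98. Against each group alone, the median difference was 0.98 from RORgt-KO and 1.12 from RORgt-RORa-KO. The members were chosen by these values, which are given as a description. A gap of 1 or more was reached by 119 members (33.3%) and a gap of 2 or more by 6. Most members were therefore modest differences that lay close above the bound.

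**Figure D1:**
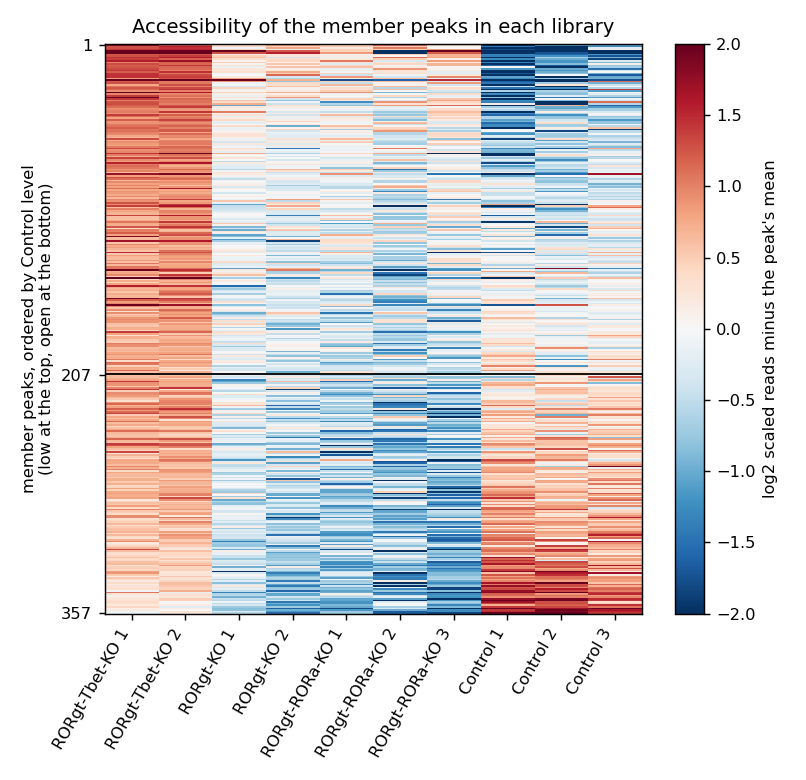
Each row is 1 of the 357 member peaks, ordered by Control level from low at the top to high at the bottom, and each column is 1 library. Colour gives the log2 scaled reads minus the mean of that peak over the 10 libraries, with the scale ending at -2 and 2, and the black line separates the 207 Control-low members from the 150 Control-open members. Both RORgt-Tbet-KO columns are high throughout because the rule chose them so, while the Control columns pass from low to high without a step.

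In RORgt-Tbet-KO, where the rule took high values, the median member held 68 reads per library, against 69 for all peaks, and 25 members had a mean under 20 reads there. In the other groups members were fainter than most peaks, with a median group mean of 4.83 against 5.89 for all peaks in RORgt-KO, 4.63 against 5.94 in RORgt-RORa-KO and 5.20 against 5.95 in Control. Members were shorter, with a median length of 389 bp against 480 bp for all peaks. The 2 RORgt-Tbet-KO libraries differed by a median of 0.19 in members and 0.21 in all peaks. RORgt-RORa-KO replicate 3, which matched RORgt-Tbet-KO in depth, was the highest of the 5 other knockout libraries in 65 members (18.2%), against 19.7% of all peaks. The median member lay 1.18 higher in the RORgt-Tbet-KO mean than in that library. By class the share was 5.33% of Control-open members and 27.5% of Control-low members, with a median difference of 1.45 and 0.98 from that library. The rule had placed RORgt-RORa-KO replicate 3 below both RORgt-Tbet-KO values in every member, so a positive difference from it was fixed in advance. These values therefore cannot show what part depth had in the members, which was not tested.

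The peaks just inside the bound lay near Prep, Yipf5 and 1700018F24Rik and those just outside it near Tcf7, Jmjd1c and Cldn34c1, all with a gap of 0.80 after rounding. The Prep peak, at chr10:45017743-45018383, had 8.50 and 8.01 in RORgt-Tbet-KO, 7.67 and 7.24 in RORgt-KO, 7.21, 7.63 and 7.08 in RORgt-RORa-KO and 8.15, 8.04 and 7.79 in Control. The Tcf7 peak, at chr11:52305304-52305668, had 6.12 and 6.43 in RORgt-Tbet-KO, 5.87 and 4.56 in RORgt-KO, 5.24, 5.52 and 5.68 in RORgt-RORa-KO and 6.35, 5.66 and 6.10 in Control. Tcf7 encodes TCF-1, a factor of early ILC development. With RORgt-Tbet-KO replicate 1 left out, the rule found 604 peaks, of which 296 were among the 357 members.

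A name such as peaks higher only when T-bet is lost holds for the members against the other knockouts, but not against Control in the Control-open class. All 3 Control values lay above every RORgt-KO and RORgt-RORa-KO value in 111 members (31.1%), and all 3 lay below both RORgt-Tbet-KO values in 217 (60.8%). Both held in 20 members, where Control lay between, and neither in 49 (13.7%). All 3 Control values even lay above both RORgt-Tbet-KO values in 29 members, and the Control mean was above the RORgt-Tbet-KO mean in 68 (19%). At the other end, the Control mean was under both other knockout means in 112 members (31.4%). The rule had already placed the knockout values, so these counts describe the members only. No share over all peaks stands beside them, and nothing is read from their size. The classes cut a continuum. Control was set at 0 where it equals the average of the RORgt-KO and RORgt-RORa-KO means and at 1 where it equals the RORgt-Tbet-KO mean. On this scale the median member stood at 0.32, the range was -2.97 to 2.56, and 29 members lay between 0.4 and 0.6. Without RORgt-KO replicate 1 the Control-open class held 230 peaks, and without RORgt-Tbet-KO replicate 1 the classes held 252 Control-open and 352 Control-low peaks.

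In Control-open members the median was 5.53 and 5.64 in RORgt-Tbet-KO, 4.71 and 4.40 in RORgt-KO, 4.34, 4.28 and 4.09 in RORgt-RORa-KO and 5.85, 5.58 and 5.74 in Control. In this class RORgt-Tbet-KO stood near Control, with a median difference of 0.05, while RORgt-KO stood 1.02 and RORgt-RORa-KO 1.44 below it (medians of -1.02 and -1.44). In Control-low members the median was 6.18 and 6.17 in RORgt-Tbet-KO, 5.09 and 5.04 in RORgt-KO, 5.01, 4.91 and 5.13 in RORgt-RORa-KO and 4.90, 4.76 and 4.85 in Control. Here RORgt-Tbet-KO stood above Control by a median of 1.30, and the medians of the other knockouts, 0.17 for RORgt-KO and 0.13 for RORgt-RORa-KO, lay near it. The split fixed these directions, so they describe the classes and were not tested. The B and plasma cell marker list was highest in Control, but unlike the Control-open class its RORgt-Tbet-KO values stood nearer to RORgt-KO than to Control. The log2 of its summed scaled reads was 9.49 and 9.72 in RORgt-Tbet-KO and 10.05 to 10.16 in Control. The list stood at 9.44 and 9.41 in RORgt-KO and 9.17 to 9.40 in RORgt-RORa-KO. Of its 9 genes 3 had a peak, 12 in all, and none of these peaks was a member. All 3 of these genes had only lower calls in RORgt-Tbet-KO against Control by limma. The part of such cells in this class was not tested.

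**Figure D2:**
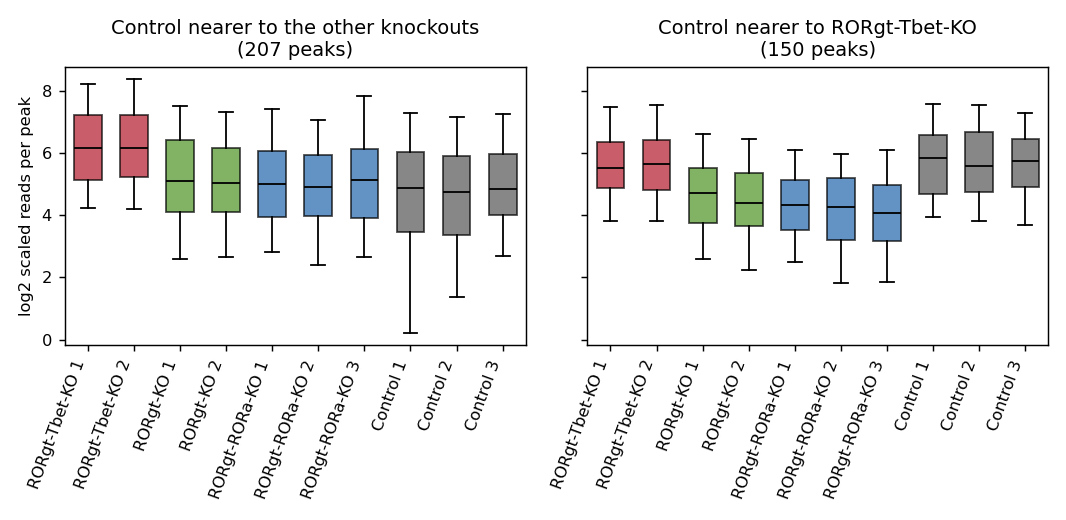
Box plots of log2 scaled reads per peak (vertical axis) in each library, left for the 207 Control-low members and right for the 150 Control-open members. Boxes span the quartiles with the median as a line, and whiskers run from the 5th to the 95th percentile. In the left panel the medians are 6.18 and 6.17 in RORgt-Tbet-KO against 4.76 to 5.13 elsewhere, and in the right panel the 3 Control medians of 5.58 to 5.85 stand beside RORgt-Tbet-KO at 5.53 and 5.64.

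Each knockout was then compared with Control by limma over all peaks, with Benjamini-Hochberg adjustment and a threshold of 0.05. The 3 comparisons share the Control libraries, and the rule had already placed the knockout values of the members, so the counts describe the members beside all peaks and carry no weight as a finding. The same holds for the differences and p-values of single members against Control given below, which the rule and the Control split had shaped. In RORgt-Tbet-KO, 131 members (36.7%) were higher than in Control, where 11.3% of all peaks were, and 8 members (2.24%) were lower, where 11.3% of all peaks were. The median difference was 0.73 in members and 0.01 in all peaks. In RORgt-KO, 23 members (6.44%) were higher than in Control, against 5.19% of all peaks, and 61 (17.1%) were lower, against 7.12% of all peaks, with a member median of -0.26. In RORgt-RORa-KO, 30 members (8.4%) were higher, against 15.1% of all peaks, and 122 (34.2%) were lower, against 16.1% of all peaks, with a member median of -0.41.

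Member by member, 85 were higher in RORgt-Tbet-KO than in Control with no call in the other knockouts (23.8%, against 3.59% of all peaks). A further 35 were higher in RORgt-Tbet-KO and also in RORgt-KO or RORgt-RORa-KO (9.8%, against 7.63%). In 51 members both RORgt-KO and RORgt-RORa-KO were lower than Control while RORgt-Tbet-KO was not called (14.3%, against 1.26%), and in 8 members all 3 knockouts were lower (2.24%, against 5.1%). No knockout was called against Control in 113 members (31.7%, against 61.3%). The rule shaped these shares, so nothing is read from them. The total of calls in RORgt-Tbet-KO, 139, was 76 without its replicate 1 and 73 without its replicate 2, and the total in RORgt-KO, 84, was 48 without its replicate 1 and 29 without its replicate 2.

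RORgt-RORa-KO and RORgt-KO, which the rule held below RORgt-Tbet-KO but did not order, were compared directly. RORgt-RORa-KO was the lower of the pair by its mean in 236 members (66.1%). The median difference was -0.11 in members and -0.001 in all peaks, so over all peaks about as many were lower as higher. By limma 12 members (3.36%) were lower in RORgt-RORa-KO, against 1.14% of all peaks, and 1 member was higher, where 0.331% of all peaks were. The member that was higher lies 20581 bp from Fam126a, which encodes hyccin, at chr5:23894015-23894695. It had 7.66 and 7.58 in RORgt-Tbet-KO, 6.34, 6.40 and 5.95 in RORgt-RORa-KO, 5.28 and 4.11 in RORgt-KO and 5.58, 5.46 and 5.38 in Control. RORgt-RORa-KO exceeded RORgt-KO there without overlap, by 1.53 (adjusted p = 0.00509).

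The 12 members that were lower in RORgt-RORa-KO than in RORgt-KO included peaks near Slc30a2, a zinc transporter, Ly86, which encodes the MD-1 partner of an innate receptor, and Krt8, a keratin of simple epithelia. The Ly86 peak, at chr13:37342032-37342486, had 7.98 and 7.92 in RORgt-Tbet-KO, 5.29, 5.40 and 5.62 in RORgt-RORa-KO, 7.19 and 6.84 in RORgt-KO and 7.30, 7.78 and 7.36 in Control. The RORgt-RORa-KO libraries stood apart below all others at this peak (-1.58 from RORgt-KO, adjusted p = 0.000116). The 3 neighbouring members on chromosome 17, near Tulp1, Fkbp5 and Pxt1, were also among the 12. The total of 13 calls was 5 without RORgt-KO replicate 1 and 4 without RORgt-KO replicate 2.

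Among the genes that carry the functions of group 3 ILCs, members lay at Il22 and Il17a. Of 82 peaks assigned to 14 type 3 effector and receptor genes, 4 were members, where 0.985% of all peaks were. Of the other 78 peaks of this list, none was higher in RORgt-Tbet-KO than in RORgt-KO by limma and 1, at the interleukin-23 receptor gene Il23r, was lower.

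Il22 encodes interleukin-22, the cytokine through which group 3 ILCs maintain the epithelial barrier, and its promoter sequence is printed above. The member over the gene start, at chr10:118204392-118204940, had 7.32 and 7.03 in RORgt-Tbet-KO, 6.49 and 5.35 in RORgt-KO, 4.94, 5.63 and 5.13 in RORgt-RORa-KO and 6.97, 6.58 and 6.53 in Control. Control and RORgt-Tbet-KO were high and did not reach down to the other knockouts, of which RORgt-KO replicate 1 was the nearest. Against Control, the difference was 0.48 in RORgt-Tbet-KO (SE 0.30, adjusted p = 0.267), -0.77 in RORgt-KO (SE 0.30, adjusted p = 0.0951) and -1.46 in RORgt-RORa-KO (SE 0.27, adjusted p = 0.000115).

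A second Il22 member lies 221 bp beyond the other end of the gene, at chr10:118210268-118210470. It had 4.77 and 5.27 in RORgt-Tbet-KO, 4.09 and 3.46 in RORgt-KO, 3.48, 4.52 and 0.84 in RORgt-RORa-KO and 4.18, 5.02 and 4.26 in Control, so Control overlapped both sides. The other 2 peaks assigned to Il22, 9065 and 13890 bp away, were not members. The one at 13890 bp had 5.08 and 5.47 in RORgt-Tbet-KO, well under the Control mean of 6.80 (-1.52, adjusted p = 0.00346). Iltifb, a near-identical copy of Il22, lies beside it on chromosome 10, and reads from the 2 copies cannot always be told apart, so these values are uncertain.

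Il17a encodes interleukin-17A. Its member 4946 bp from the gene, at chr1:20725581-20725959, had 5.72 and 4.50 in RORgt-Tbet-KO, 3.28 and 4.11 in RORgt-KO, 3.65, 3.14 and 2.65 in RORgt-RORa-KO and 6.46, 6.78 and 6.07 in Control. The 4 groups formed steps, with Control above RORgt-Tbet-KO and RORgt-Tbet-KO above the others, and RORgt-Tbet-KO replicate 2 was close to RORgt-KO replicate 2. RORgt-Tbet-KO was below Control by 1.33 (difference -1.33, SE 0.46, adjusted p = 0.0389), a call that was lost without RORgt-Tbet-KO replicate 2 (adjusted p = 0.513), without Control replicate 1 (adjusted p = 0.0863) and without Control replicate 2 (adjusted p = 0.151). RORgt-KO differed from Control by -2.74 (adjusted p = 0.000174) and RORgt-RORa-KO by -3.29 (adjusted p = 5.78e-07).

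The second Il17a member, 9319 bp away on the other side at chr1:20743815-20744244, had 5.91 and 5.70 in RORgt-Tbet-KO, 4.87 and 4.82 in RORgt-KO, 4.88, 5.14 and 4.65 in RORgt-RORa-KO and 5.54, 5.33 and 5.07 in Control. Control lay between the others here with a slight overlap. The other 3 peaks assigned to Il17a were highest in Control and differed among themselves. The peak at 5891 bp had means of 7.56 in RORgt-Tbet-KO, 7.16 in RORgt-KO, 5.36 in RORgt-RORa-KO and 8.59 in Control. The peak at 19901 bp had means of 7.20 in RORgt-Tbet-KO, 6.71 in RORgt-KO, 5.93 in RORgt-RORa-KO and 7.85 in Control. The peak at 44632 bp had a RORgt-Tbet-KO mean of 2.85, below the 3.60 of RORgt-KO, the 3.85 of RORgt-RORa-KO and the 6.61 of Control. No peak assigned to Il17f was a member.

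**Figure D3:**
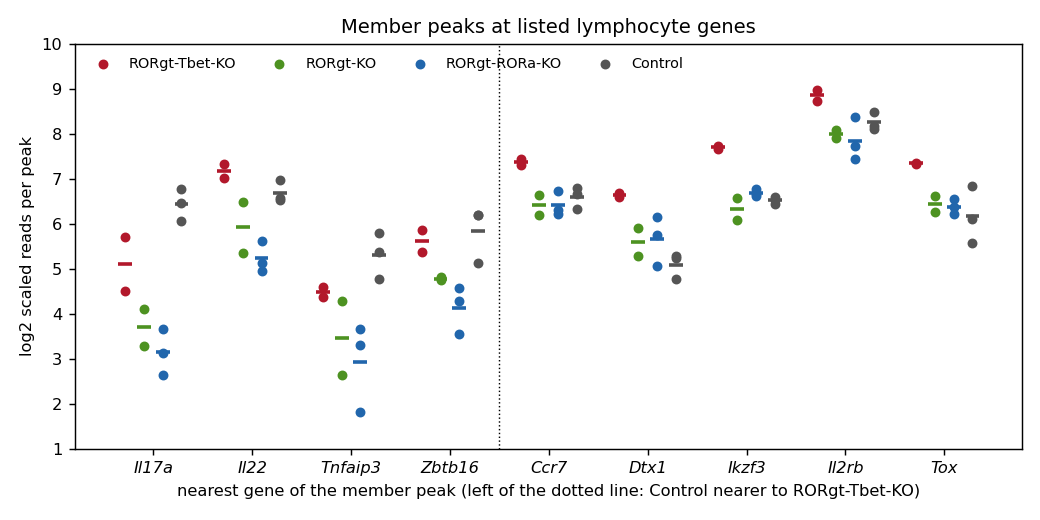
Log2 scaled reads per peak (vertical axis) of 9 member peaks at listed lymphocyte genes (horizontal axis, nearest gene), 1 point per library with bars at the group means. Left of the dotted line are Control-open members and right of it Control-low members. At Il17a the RORgt-Tbet-KO points of 4.50 and 5.72 lie below the Control points, 6.07 to 6.78, whereas at Ikzf3 the RORgt-Tbet-KO points of 7.68 and 7.74 lie above all others.

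Other listed lymphocyte genes with a member were mostly Control-low. In that class the rule and the split had placed RORgt-Tbet-KO above Control, so the p-values describe single peaks only. Ikzf3 encodes Aiolos, an Ikaros family zinc finger factor of lymphocytes. Its member inside the gene, at chr11:98469907-98470582, had 7.74 and 7.68 in RORgt-Tbet-KO, 6.57 and 6.08 in RORgt-KO, 6.61, 6.77 and 6.66 in RORgt-RORa-KO and 6.52, 6.44 and 6.61 in Control. The 8 libraries of the other groups lay between 6.08 and 6.77, and the RORgt-Tbet-KO libraries stood apart, 1.18 above Control (SE 0.22, adjusted p = 0.000298). The other 3 Ikzf3 peaks were not members. Of these, the one at chr11:98479585-98480342 had means of 6.98 in RORgt-Tbet-KO, 6.46 in RORgt-KO, 5.72 in RORgt-RORa-KO and 6.97 in Control.

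Ccr7 encodes the chemokine receptor that guides lymphocytes to lymph nodes and is carried by LTi-like group 3 ILCs. It had 2 members among 8 peaks, the only ones among 89 peaks of the LTi-like list, where 0.985% of all peaks were members. The member 12803 bp away, at chr11:99130785-99131396, had 7.45 and 7.31 in RORgt-Tbet-KO, 6.64 and 6.21 in RORgt-KO, 6.32, 6.21 and 6.74 in RORgt-RORa-KO and 6.66, 6.33 and 6.81 in Control. The member 11452 bp away, at chr11:99132305-99132747, had 7.69 and 7.95 in RORgt-Tbet-KO, 7.03 and 6.97 in RORgt-KO, 6.84, 6.43 and 7.24 in RORgt-RORa-KO and 6.97, 6.50 and 6.70 in Control. In both, RORgt-Tbet-KO stood above the 8 other libraries, which overlapped, by 0.79 (adjusted p = 0.0188) and 1.10 (adjusted p = 0.00107) over Control. The call at the member 12803 bp away was lost without RORgt-Tbet-KO replicate 1 (adjusted p = 0.182), without RORgt-Tbet-KO replicate 2 (adjusted p = 0.101) and without Control replicate 2 (adjusted p = 0.0807).

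Of 226 peaks assigned to ILC transcription factor genes, 3 were members, at Ikzf3, Tox and Zbtb16, where 0.985% of all peaks were. Tox encodes an HMG-box factor that ILCs need to develop. Its single member among 22 peaks, inside the gene at chr4:6970364-6970929, had 7.33 and 7.36 in RORgt-Tbet-KO, 6.62 and 6.27 in RORgt-KO, 6.21, 6.55 and 6.38 in RORgt-RORa-KO and 6.83, 6.10 and 5.58 in Control. Only the RORgt-Tbet-KO libraries exceeded 7, and the difference from Control was 1.17 (SE 0.28, adjusted p = 0.00282). The other Tox peaks called in RORgt-Tbet-KO against Control by limma, at 6846049, 6903549 and 6908931, were lower. Their differences were -3.05, -1.02 and -1.72 (adjusted p = 0.000162, 0.0036 and 0.00998).

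Zbtb16 encodes PLZF, a zinc finger factor of ILC precursors. Its single member among 14 peaks, inside the gene at chr9:48829328-48829647, was Control-open and had 5.37 and 5.87 in RORgt-Tbet-KO, 4.74 and 4.82 in RORgt-KO, 4.57, 4.28 and 3.54 in RORgt-RORa-KO and 6.21, 5.13 and 6.2 in Control. RORgt-Tbet-KO lay within the range set by Control replicate 2 and the other 2 Control libraries, while RORgt-KO and RORgt-RORa-KO lay below it. Against Control the difference was -0.22 in RORgt-Tbet-KO (adjusted p = 0.742), -1.06 in RORgt-KO (adjusted p = 0.0862) and -1.71 in RORgt-RORa-KO (adjusted p = 0.000524). Zbtb16 peaks that were not members went both ways in RORgt-Tbet-KO against Control by limma. The one at chr9:48806481-48807073 had means of 8.46 in RORgt-Tbet-KO and 6.75 in Control (1.71, adjusted p = 7.48e-07). Those at 48794990, 48804368 and 48819544 were higher by 1.55, 1.17 and 0.65. The one at 48854235 was lower (-2.13, adjusted p = 0.00463).

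Dtx1 encodes Deltex, a ubiquitin ligase of the Notch pathway. Its member at chr5:120708731-120709248 had 6.60 and 6.69 in RORgt-Tbet-KO, 5.28 and 5.90 in RORgt-KO, 6.16, 5.07 and 5.75 in RORgt-RORa-KO and 5.23, 5.28 and 4.76 in Control, a difference of 1.55 between RORgt-Tbet-KO and Control (SE 0.33, adjusted p = 0.0011). It was the only member among 87 peaks of the TGF-beta and Notch list, where 0.985% of all peaks were members. Il2rb, the chain shared by the interleukin-2 and interleukin-15 receptors, had a member at chr15:78493406-78494120 with 8.74 and 8.98 in RORgt-Tbet-KO, 8.08 and 7.92 in RORgt-KO, 7.72, 7.45 and 8.39 in RORgt-RORa-KO and 8.48, 8.12 and 8.18 in Control. Its difference of 0.60 from Control (SE 0.21) was near the threshold (adjusted p = 0.0413) and lost the call without any 1 of 7 libraries: either RORgt-Tbet-KO library, either RORgt-KO library, RORgt-RORa-KO replicate 1, or Control replicates 2 or 3 (adjusted p = 0.0516 to 0.318).

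Tnfaip3 encodes A20, an inhibitor of NF-kB signalling, and its member was also Control-open. The peak, 33227 bp away at chr10:18967478-18967683, had 4.37 and 4.60 in RORgt-Tbet-KO, 4.28 and 2.65 in RORgt-KO, 3.65, 1.82 and 3.30 in RORgt-RORa-KO and 5.80, 5.37 and 4.76 in Control. Control was the highest group, and RORgt-KO replicate 1 came close to RORgt-Tbet-KO replicate 1. The lists without any member were type 1 and NK genes (101 peaks), type 2 genes (34), homing and residency genes (56), immediate early and AP-1 genes (74), JAK-STAT and SOCS genes (70) and circadian clock genes (46). Since 0.985% of all peaks were members, lists of this size can hold none, and nothing is read from their absence. In the type 1 and NK list, 8 peaks were lower in RORgt-Tbet-KO than in RORgt-KO by limma and none was higher, where 0.975% and 0.117% of all peaks that were not members passed.

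Of the 16 members named for the largest gaps, 8 in each class, the Il17a member was the only one at a listed lymphocyte gene. The largest gap lay inside Msi2, which encodes the RNA-binding protein Musashi-2, at chr11:88552960-88553304. It had 6.08 and 6.53 in RORgt-Tbet-KO, 3.28 and 2.65 in RORgt-KO, 4.19, 3.14 and 2.65 in RORgt-RORa-KO and 1.96, 4.46 and 4.58 in Control. RORgt-Tbet-KO stood above every other library, by 2.64 over Control (SE 0.66, adjusted p = 0.00457, but 0.100 without RORgt-Tbet-KO replicate 2), while the Control libraries spanned the range of the other knockouts.

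Msi2 held more members than any other gene, 4 of its 14 peaks, and they differed in class. The members at 88552960 and 88618890 were Control-low and those at 88578722 and 88631736 Control-open. The last of these, at chr11:88631736-88632219, had 6.61 and 6.62 in RORgt-Tbet-KO, 5.33 and 5.61 in RORgt-KO, 5.19, 5.21 and 5.70 in RORgt-RORa-KO and 6.30, 6.64 and 6.48 in Control. RORgt-KO was lower than Control there by 1.01 (difference -1.01, adjusted p = 0.0138) and RORgt-RORa-KO by 1.11 (difference -1.11, adjusted p = 0.000884).

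Further large gaps in the Control-low class were at Btrc, which encodes the ubiquitin ligase subunit beta-TrCP (gap 2.16), near Ppp4r2, a regulatory subunit of protein phosphatase 4 (1.78), and at Eprs, a tRNA synthetase gene (1.65), with Lrguk, Znrf2, Rundc1 and Timp2 between 1.45 and 1.53. Btrc had 5.80 and 5.36 in RORgt-Tbet-KO, 3.61 and 3.24 in RORgt-KO, 3.48, 3.14 and 3.01 in RORgt-RORa-KO and 3.96, 2.96 and 4.48 in Control at chr19:45480938-45481180. RORgt-Tbet-KO was above Control by 1.78 (adjusted p = 0.0229), a call lost without either RORgt-Tbet-KO library or Control replicate 2 (adjusted p = 0.103 to 0.257). Many of these peaks were faint, since the Lrguk member rested on 22 and 32 reads and the Znrf2 member on 20 and 24 reads in RORgt-Tbet-KO.

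In the Control-open class the largest gaps were near Crygn, a lens crystallin gene (2.26), Sel1l3 (2.15), Zfp362, a zinc finger gene (1.73), Gipc1, a scaffold protein gene (1.62), Kcne2, a potassium channel subunit gene (1.61), Smok3c (1.49), Il17a (1.41) and Irf2bp2 (1.41). Crygn, 5948 bp from its peak at chr5:24744861-24745054, had 5.27 and 5.1 in RORgt-Tbet-KO, 2.87 and 2.97 in RORgt-KO, 3.65, 2.40 and 2.43 in RORgt-RORa-KO and 4.83, 4.46 and 4.68 in Control. Control stood next to RORgt-Tbet-KO and apart from the other knockouts, 41 reads being counted in each RORgt-Tbet-KO library.

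Irf2bp2, a corepressor that binds the interferon regulatory factor IRF2, had the strongest of these 8 peaks, at chr8:126588815-126589287. It had 7.68 and 7.39 in RORgt-Tbet-KO, 6.47 and 5.78 in RORgt-KO, 5.84, 5.73 and 5.49 in RORgt-RORa-KO and 7.29, 7.0 and 6.68 in Control. Control overlapped neither of the other knockouts, and lay 0.86 above RORgt-KO (difference -0.86, adjusted p = 0.0246) and 1.31 above RORgt-RORa-KO (difference -1.31, adjusted p = 6.51e-05).

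Dynlt1b, a dynein light chain gene on chromosome 17, had 3 members. The one 2349 bp away, at chr17:6426919-6427181, held 92 and 117 reads in RORgt-Tbet-KO, 49 and 17 in RORgt-KO, 11, 0 and 55 in RORgt-RORa-KO and 0 in each Control library. The libraries of 1 group differed widely here, and Control was empty. Near-identical copies of Dynlt1 lie in this region, so reads cannot be assigned to 1 copy with certainty. Pigl, which encodes an enzyme of GPI anchor synthesis, had 2 members, of which the one at chr11:62466347-62467145 was the most accessible of all members. It had 9.80 and 9.78 in RORgt-Tbet-KO, 9.05 and 8.76 in RORgt-KO, 9.08, 8.33 and 9.46 in RORgt-RORa-KO and 8.91, 8.54 and 8.70 in Control.

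The members named 288 genes, 2.19% of the 13135 genes with a peak, and 249 of these had another peak that was not a member. These 1155 other peaks show whether a gene's neighbouring chromatin shared the difference between RORgt-Tbet-KO and RORgt-KO. Their median difference was 0.18, against 0.01 for all peaks that were not members, and 3 (0.26%) were higher by limma, against 0.117% of the same peaks, while 4 (0.346%) were lower, against 0.975%. The 3 higher peaks lay at Grap2, which encodes a T cell adaptor, in 2 cases and at Rtp3 in 1. The stronger Grap2 peak had a mean of 6.99 in RORgt-Tbet-KO and 5.58 in RORgt-KO (1.40, SE 0.31, adjusted p = 0.0159). The 4 lower peaks lay at Hand2, Kcnk1, Ppp4r2 and Prep, and the one near Hand2, with means of 0.62 in RORgt-Tbet-KO and 5.37 in RORgt-KO, differed by -4.75 (adjusted p = 2.24e-05). The balance of directions depended on the fit, with 12 higher and 7 lower by limma voom on the reads, 12 higher and 6 lower with the replicate block and 107 higher and 22 lower when only RORgt-Tbet-KO and RORgt-KO were fitted. The counts were small and unstable: the total of 7 calls was 2 without RORgt-Tbet-KO replicate 1 (0 higher), 4 without RORgt-Tbet-KO replicate 2 (0 higher), 4 without RORgt-KO replicate 1 (2 higher), 3 without RORgt-KO replicate 2 (0 higher), 25 without RORgt-RORa-KO replicate 2 (19 higher) and 13 without RORgt-RORa-KO replicate 3 (9 higher).

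Members lay away from gene ends. Only 17 (4.76%) lay within 1 kb of an end of a protein-coding gene, against 29.9% of all peaks. Inside a gene were 51.5% of members and 39.1% of all peaks, between genes up to 50 kb away 29.7% and 20.9%, and beyond 50 kb 14.0% and 10.1%. The 2 promoter overlaps, at Il22 and Il6, made 0.57% of members against 23.4% of all peaks on those chromosomes. Both Control classes shared this pattern, with 3.33% of Control-open and 5.8% of Control-low members within 1 kb of a gene end. The Il6 peak, part of whose sequence is printed above, belongs to the gene of the inflammatory cytokine interleukin-6. It was faint, with 4.67 and 4.91 in RORgt-Tbet-KO, 2.87 and 4.65 in RORgt-KO, 4.39, 3.82 and 3.30 in RORgt-RORa-KO and 4.18, 3.37 and 3.85 in Control. RORgt-KO replicate 2 came close to RORgt-Tbet-KO replicate 1 there.

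**Figure D4:**
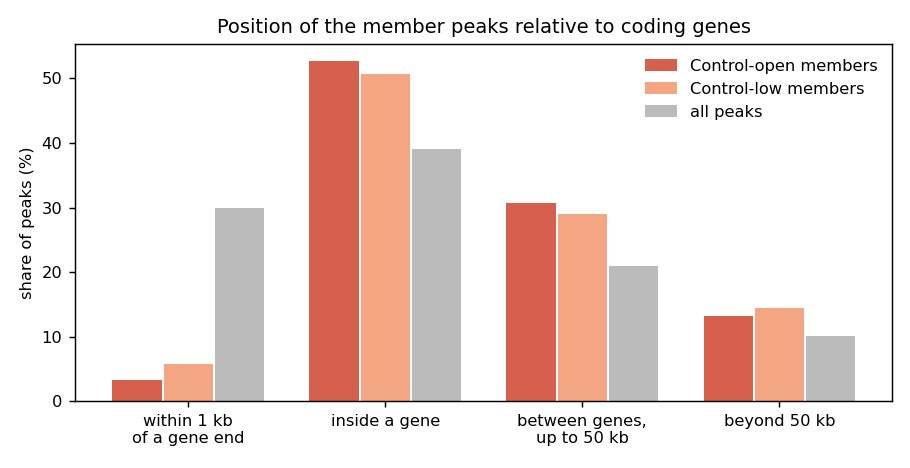
Share of peaks in percent (vertical axis) by position relative to protein-coding genes, for Control-open members, Control-low members and all peaks. Within 1 kb of a gene end the bars are 3.33%, 5.8% and 29.9%, and inside genes 52.7%, 50.7% and 39.1%.

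Members were unevenly spread over the chromosomes. Chromosome 11, which carries Tbx21, held 44 members among 2266 peaks (1.94%), the highest share, and the X chromosome held 0 of 940. Within 10 Mb of Tbx21 (chr11:97098007-97115331), 16 of 491 peaks (3.26%) were members, while 7 (1.43%) were lower in RORgt-Tbet-KO by the same rule, where 3.94% were in the rest of the genome. Farther than that, 341 of 35760 peaks (0.954%) were members. By distance the shares on chromosome 11 were 2.79% under 5 Mb, 3.75% from 5 to 10 Mb, 0.943% from 10 to 20 Mb and 1.78% beyond, so distance from Tbx21 gave no steady decline. The 16 include Msi2, Ikzf3, Ccr7, Map3k14 and Rundc1. Only the RORgt-Tbet-KO mice carry the floxed Tbx21 allele, so sequence inherited with that allele and the loss of T-bet cannot be told apart at these peaks. Within 10 Mb of Rora the share was 3.4%. Only RORgt-RORa-KO carries the floxed Rora allele, so the limit there concerns the RORgt-RORa-KO values. The rule also asked for RORgt-Tbet-KO values above those of RORgt-KO, and neither of these groups carries that allele.

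**Figure D5:**
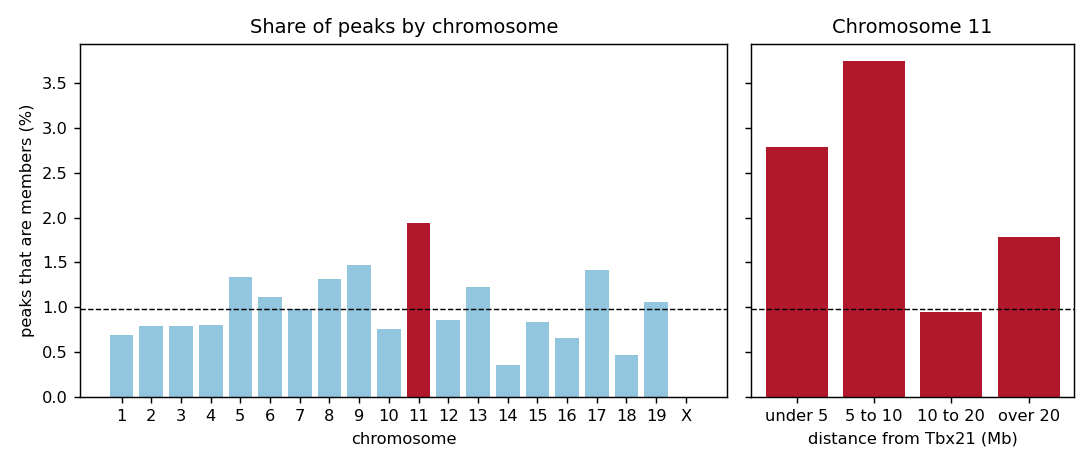
Left, members as a percentage of the peaks of each chromosome, with the genome-wide 0.985% as a dashed line; right, the same share on chromosome 11 by distance from Tbx21 in Mb. Chromosome 11 (1.94%) is the tallest bar at left, and at right the bars are 2.79%, 3.75%, 0.943% and 1.78%.

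Members also lay near one another. Another member was within 50 kb of 61 members (17.1%), while 3.75% of the peaks that were not members had a member that close. Of 2216 windows of 1 Mb with a peak, 15 held 3 members or more. The fullest, on chromosome 17 from 28 Mb, held 8 members among 52 peaks and no peak lower by the same rule. They lay at or near Ppard, a lipid-sensing nuclear receptor gene, Tead3, Tulp1, Fkbp5, which encodes a steroid receptor cochaperone, Srpk1, a splicing kinase gene, and Pxt1. The Ppard peak at chr17:28280269-28280807 had 7.14 and 6.91 in RORgt-Tbet-KO, 5.61 and 5.74 in RORgt-KO, 6.04, 5.57 and 5.60 in RORgt-RORa-KO and 5.42, 4.96 and 5.63 in Control. RORgt-Tbet-KO stood apart there, by 1.69 over Control (adjusted p = 0.000109). The next fullest window, on chromosome 9 from 61 Mb, held 5 members among 40 peaks, with Tle3, a Groucho family corepressor gene, as the only gene within 50 kb of 1 of them. This window lies within 10 Mb of Rora, so the limit given above for the RORgt-RORa-KO values holds there too.

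Markers of other cell types were followed through 9 lists. T cell, B and plasma cell, myeloid, mast cell, endothelial, enteric glia and erythroid lists had no member. The epithelial list had 1 among 11 peaks, near Krt8, and the stromal list 1 among 8, in Pdgfrb. These lists hold few peaks, and 0.985% of all peaks were members. Of the listed genes, 5 of 7 epithelial, 3 of 6 stromal and 3 of 5 endothelial genes had a peak. The log2 of summed scaled reads over the stromal list was 9.54 and 9.62 in RORgt-Tbet-KO, 9.11 and 9.22 in RORgt-KO, 9.05 to 9.25 in RORgt-RORa-KO and 9.30 to 9.48 in Control, highest in RORgt-Tbet-KO. Over the endothelial list it was 9.80 and 9.83 in RORgt-Tbet-KO, 9.40 and 9.46 in RORgt-KO, 9.42 to 9.81 in RORgt-RORa-KO and 9.18 to 9.45 in Control. Over the epithelial list it was 10.2 in both RORgt-Tbet-KO libraries, 10.2 in both RORgt-KO libraries, 10.0 to 10.2 in RORgt-RORa-KO and 9.66 to 9.90 in Control. Over the T cell list it was 9.22 and 9.44 in RORgt-Tbet-KO, 9.16 and 9.08 in RORgt-KO, 9.52 to 9.75 in RORgt-RORa-KO and 8.92 to 9.13 in Control. The mast cell sum was 8.06 and 7.93 in RORgt-Tbet-KO, just under the 8.08 to 8.72 of the other 8 libraries, and the myeloid, enteric glia and erythroid sums in RORgt-Tbet-KO lay within the range of those libraries. The part of other cells in the members was not tested.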

How the data were processed

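Accessibility was measured by ATAC-seq in 10 libraries. Per the submitters' processing notes, the authors used Trim Galore 0.62, Bowtie2 2.3.5.1, SAMtools and MACS2 on the GRCm38 build. The deposited table holds log2 scaled reads for 36262 peaks, and no source read here states how the authors scaled them. Raised to a power of 2, the values were whole multiples of 1 step per library within a tolerance of 0.01, which gave the reads. The 11 Y peaks were left out.

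The deposited log2 values were compared by limma 3.58.1 (R 4.3.3) in a single model of the 4 groups with a mean-variance trend, 6 residual and 22.5 prior degrees of freedom, and two-sided p adjusted by Benjamini-Hochberg over 36251 peaks. Contrasts had a median SE of 0.27 to 0.33. The fit was tested on simulated data. A planned quasi-likelihood count test was not run because the deposited unit is log2.

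A peak carries the name of the nearest protein-coding gene within 50 kb in RefSeq GRCm38.p6. The members, gene lists and marker lists were chosen with earlier results of these data known. Named are, in each Control class, the 8 members with the largest gap and at least 20 mean reads (1 per gene, predicted genes left out), up to 3 members of each list, the 5 genes with the most members, the 3 peaks on each side of the bound and the targeted genes. One targeted gene is not reported here and was left out of the list counts. All other genes named were chosen after their values were seen. Counting intervals were not used, and p-values measure the spread between libraries. Figures were drawn with matplotlib 3.10.9.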

Additional observations from a re-analysis of the deposited data

How the results depend on the processing

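The rule gave 357 members, against 1041 with a bound of 0.6 and 119 with a bound of 1.0, which follows from the bound itself. Leaving out the weakest peaks, which leaves fewer to choose from, gave 208 (85 Control-open and 123 Control-low), and a prior count of 5 gave 143 (59 and 84), a drop whose cause was not tested. Quantile normalization gave 470 members, 307 of them shared, and a trimmed mean scaling of the reads gave 304, all shared. Leaving out 1 library gave 357 to 604 members, 142 to 252 Control-open and 198 to 352 Control-low. Calls against Control ranged from 73 to 154 in RORgt-Tbet-KO and from 29 to 103 in RORgt-KO. In RORgt-RORa-KO they ranged from 131 to 163 against Control and from 4 to 12 against RORgt-KO, where 1 remained with no mean-variance trend and 7 with only these groups fitted. Other peaks of member genes, 7 in the chosen fit, gave 2 to 25 calls without 1 library, 19 with limma voom, 2 with no trend, 18 with the replicate block, 129 (107 higher, with 8.71% of all peaks called) when only RORgt-Tbet-KO and RORgt-KO were fitted, and 3 when restricted to genes with a 5 kb margin. The share of higher calls among these was 42.9% in the chosen fit, 63.2% with voom, 66.7% with the block and 82.9% with the pair alone, and the cause was not tested. Within 2 kb of a gene end lay 8.4% of members. The replicate numbers did not pair the libraries, since same-numbered libraries correlated at -0.12 to 0.14; with the replicate block, calls against Control were 155 in RORgt-Tbet-KO, 104 in RORgt-KO and 164 in RORgt-RORa-KO, and 14 between RORgt-RORa-KO and RORgt-KO. Leaving out peaks within 10 Mb of Tbx21, an alternative chosen after seeing the data, left 341 members, of which 121 were higher and 8 lower in RORgt-Tbet-KO than in Control. For the 18 named peaks called in RORgt-Tbet-KO against Control, 256 of 297 alternative values kept the call, 41 lost it and 0 turned round; with no trend 7 of 18 lost it. With 2 libraries each in RORgt-Tbet-KO and RORgt-KO, a single library moves both the choice of members and the calls. The deepest libraries are both RORgt-Tbet-KO libraries and RORgt-RORa-KO replicate 3.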

Other observations

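Further members lay near immune genes outside the naming rule, and those given here were chosen after their values were seen. Their differences from Control were shaped by the rule and the Control split. Lag3 encodes an inhibitory receptor of lymphocytes, and its member at chr6:124900932-124901500 had 9.32 and 9.19 in RORgt-Tbet-KO, 8.57 and 8.33 in RORgt-KO, 8.29, 7.85 and 8.93 in RORgt-RORa-KO and 8.60, 8.31 and 8.38 in Control. RORgt-Tbet-KO stood above all other libraries, by 0.83 over Control (adjusted p = 0.00622). Map3k14 encodes NIK, the kinase of the alternative NF-kB pathway downstream of lymphotoxin receptors. Its member at chr11:103262342-103262687 had 7.62 and 7.92 in RORgt-Tbet-KO, 6.99 and 6.51 in RORgt-KO, 6.61, 6.14 and 7.24 in RORgt-RORa-KO and 6.90, 6.56 and 6.51 in Control, a difference of 1.12 from Control (adjusted p = 0.00246). Zc3h12a, the gene of the mRNA-degrading Regnase-1, and Lif, a cytokine gene, had Control-low members that were 0.88 (adjusted p = 0.00381) and 1.17 (adjusted p = 0.0184) higher in RORgt-Tbet-KO than in Control.

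Members near the cytokine gene Il21 and in the calcium-dependent factor gene Nfatc2 were Control-open. The Il21 member, 32603 bp away at chr3:37189737-37190156, had 5.91 and 5.68 in RORgt-Tbet-KO, 5.14 and 4.82 in RORgt-KO, 4.29, 3.99 and 4.70 in RORgt-RORa-KO and 6.46, 6.48 and 6.29 in Control. The groups stood in steps without overlap, and against Control the difference was -0.62 in RORgt-Tbet-KO (adjusted p = 0.185), -1.43 in RORgt-KO (adjusted p = 0.00379) and -2.08 in RORgt-RORa-KO (adjusted p = 3.17e-06). Among the 8 members that were lower in all 3 knockouts than in Control was a peak in Plxdc2, which encodes a plexin domain protein. This member, at chr2:16441663-16442130, had 5.0 and 4.79 in RORgt-Tbet-KO, 3.99 and 3.82 in RORgt-KO, 3.65, 3.82 and 3.54 in RORgt-RORa-KO and 6.23, 6.76 and 6.43 in Control.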
